A study of Mus musculus with 144 samples.

Results

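Mouse liver under unrestricted feeding was compared between the middle of the subjective day and the middle of the subjective night, gene by gene. The comparison used 16 of the 144 samples of the series: 8 libraries of the subjective day, collected at 4, 8, 28 and 32 h of circadian time, and 8 of the subjective night, collected at 16, 20, 40 and 44 h. The libraries were taken by their time labels alone. Every animal was a wild-type C57BL/6J male 6 months old with food and water available around the clock (ad libitum, AL). Mice were housed 1 to a cage with a running wheel. The sample labels give a cycle of 12 h light and 12 h dark, while the series' design text and the file headers place the sampling in constant darkness, and hours are read here as circadian time, in which subjective day runs from 0 to 12 h. Each time has 2 libraries, named A and B, described as biological replicates, so each side holds 4 libraries of each letter. The whole series has 5 feeding regimens in liver, sampled every 4 h over 2 days, and in 2 of them BAT (brown adipose tissue) was sampled too. Further libraries used here for comparison are 8 of ad libitum liver at dawn (0, 24 h) and dusk (12, 36 h), 16 of TR-night liver and 16 of TR-day liver at the same hours as the main comparison, and 8 of ad libitum BAT, with 1 animal a time. In the TR regimens (time-restricted feeding) unlimited food was offered only in the first 6 h of the dark phase (TR-night) or of the light phase (TR-day), to mice of the same strain, sex and age.

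The circadian clock of liver cells is a loop of transcription factors. BMAL1, encoded by Arntl, pairs with CLOCK or NPAS2 and switches on the Per, Cry, Nr1d1, Nr1d2 and Dbp genes, PER and CRY proteins then block that pair, and the REV-ERB receptors encoded by Nr1d1 and Nr1d2 repress Arntl at DNA elements that the ROR receptors use to activate it. Mice are nocturnal and eat mostly in the dark, and liver genes of sugar, lipid, sterol and drug metabolism and of protein folding are known to follow this daily cycle.

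Expression was measured by sequencing of polyadenylated RNA. The deposited counts per gene were scaled here to CPM, which are counts relative to the size of the library, with TMM factors over the ad libitum liver libraries. Totals of the 16 libraries ran from 9712947 to 26649153 counts, and 12.2 to 27.9% of the counts fell on mitochondrial transcripts. The mitochondrial share was 17.7 ± 4.90% by day and 17.6 ± 5.44% at night (mean ± SD, n = 8 each; two-sided exact permutation test, p = 0.979), and library totals gave p = 0.542 in the same test. Over all 24 ad libitum liver libraries the mitochondrial share was 17.7 to 34.6% in letter A and 11.7 to 15.0% in letter B, and 6110 of 11781 genes differed between letters, which the model took up as a block. No pair of the 16 libraries was a near duplicate. All 8 general hepatocyte markers were present (Fgb was called higher by day and Tat at night). Their summed level was 77698 to 96996 CPM by day (median 87767) and 89198 to 104347 CPM at night (median 97854). The sides overlapped, with the higher median at night. Summed markers of Kupffer cells (99.2 to 270 CPM by day, 61.6 to 291 at night), sinusoidal endothelium, stellate cells, bile duct cells and erythroid cells also overlapped between the sides, and of the markers in these lists only Bmp2, of endothelium, was called. Of 7 pericentral hepatocyte markers Axin2 and Lgr5 were called higher by day, and of 7 periportal ones Hal and Sds, with overlapping sums in both lists. Summed lymphocyte markers (median 2.71 CPM by day, 1.66 at night) and neutrophil markers (median 1.36 by day, 0.584 at night) were low, and their sides overlapped. The adipocyte markers Ucp1 and Lep were at 0 in all 16 libraries. In whole tissue, fewer cells of a type and less RNA per cell cannot be told apart.

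The promoters of 6 genes are shown first, since they carry the letters that known clock and heat shock factors bind and belong to genes described below. Each window holds 250 bases before and 50 after a RefSeq transcription start on GRCm38.p6, and capitals mark the motif named for that window, searched on both strands. In the Arntl window, chr7:113207261-113207560 on the plus strand, the capitals mark TAGGTCA, a REV-ERB and ROR element searched as TAGGTCA or TGGGTCA. The windows of Ciart, chr3:95882179-95882478 on the minus strand, and Bhlhe41, chr6:145865371-145865670 on the minus strand, hold the E-box CACGTG, which is bound by BMAL1 with its partners. That of Per3, chr4:151044616-151044915 on the minus strand, holds the D-box, searched as TTATGTAA or TTACGTAA, which PAR bZIP factors such as DBP bind. The windows of Hsph1, chr5:149636266-149636565 on the minus strand, and Hspb1, chr5:135887669-135887968 on the plus strand, hold pairs of heat shock units, searched as GAANNTTC or TTCNNGAA, of which 2 in Hsph1 overlap. The Hsph1 window also holds 1 E-box, left in lower case.
Arntl: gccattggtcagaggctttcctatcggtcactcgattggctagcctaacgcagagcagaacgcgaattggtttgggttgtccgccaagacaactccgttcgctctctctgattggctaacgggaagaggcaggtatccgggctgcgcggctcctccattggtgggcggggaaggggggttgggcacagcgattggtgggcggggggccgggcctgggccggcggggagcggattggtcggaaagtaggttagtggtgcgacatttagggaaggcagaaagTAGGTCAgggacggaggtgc
Ciart: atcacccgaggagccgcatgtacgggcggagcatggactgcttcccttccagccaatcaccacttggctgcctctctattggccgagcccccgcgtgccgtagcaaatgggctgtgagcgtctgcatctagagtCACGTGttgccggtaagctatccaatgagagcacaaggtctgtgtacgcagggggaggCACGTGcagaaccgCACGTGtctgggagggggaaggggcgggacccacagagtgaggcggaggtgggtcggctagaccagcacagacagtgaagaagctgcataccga
Per3: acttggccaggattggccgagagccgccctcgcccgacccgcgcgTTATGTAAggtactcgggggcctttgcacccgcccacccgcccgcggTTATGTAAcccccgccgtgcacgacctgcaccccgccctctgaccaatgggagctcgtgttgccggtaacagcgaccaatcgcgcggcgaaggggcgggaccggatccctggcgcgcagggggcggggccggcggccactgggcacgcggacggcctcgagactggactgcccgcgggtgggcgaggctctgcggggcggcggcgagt
Bhlhe41: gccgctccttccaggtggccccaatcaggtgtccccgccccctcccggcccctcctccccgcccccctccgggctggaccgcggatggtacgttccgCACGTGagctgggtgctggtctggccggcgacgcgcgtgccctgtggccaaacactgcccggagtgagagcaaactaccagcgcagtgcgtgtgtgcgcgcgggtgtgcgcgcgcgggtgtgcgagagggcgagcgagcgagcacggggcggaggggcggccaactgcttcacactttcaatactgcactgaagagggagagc
Hsph1: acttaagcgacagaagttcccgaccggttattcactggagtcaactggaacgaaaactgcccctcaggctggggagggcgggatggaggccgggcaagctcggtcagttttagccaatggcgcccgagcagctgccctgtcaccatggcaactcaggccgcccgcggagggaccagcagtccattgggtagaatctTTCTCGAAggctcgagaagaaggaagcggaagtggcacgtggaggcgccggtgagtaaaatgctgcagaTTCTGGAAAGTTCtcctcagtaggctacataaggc
Hspb1: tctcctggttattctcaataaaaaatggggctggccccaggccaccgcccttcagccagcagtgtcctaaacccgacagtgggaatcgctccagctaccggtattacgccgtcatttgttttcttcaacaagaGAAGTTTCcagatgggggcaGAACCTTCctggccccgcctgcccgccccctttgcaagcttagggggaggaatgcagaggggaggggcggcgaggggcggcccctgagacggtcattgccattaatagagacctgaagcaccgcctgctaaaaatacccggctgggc
Such letters are common. Of 27025 genes with a window, 8.09% held an E-box, 1.23% a D-box, 7.35% a REV-ERB and ROR element and 17.0% a heat shock pair. Among genes called higher by day with a window (749), the shares were 13.6%, 1.07%, 5.21% and 13.4%, and among those called higher at night (803) 88 held an E-box, and the other shares were 1.74%, 6.35% and 16.9%. Among all genes tested with a window (9149) they were 11.9%, 0.885%, 6.48% and 14.3%. A match describes the letters in the window and is no evidence of binding.

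Day and night differed in 2007 of 11781 genes tested. With edgeR's quasi-likelihood test, the letter as a block and a Benjamini-Hochberg adjusted p under 0.05 as the call, 972 genes (8.25%) were higher in the subjective day and 1035 (8.79%) in the subjective night. Without the block the counts were 438 and 446. Differences are given as log2 day minus night ± SE, so that negative values stand for higher levels at night. Most were small: 76 genes were at least 2-fold higher by day and 136 at night. All 8 day libraries lay above all 8 night libraries in 81 genes (0.688%), and the reverse held in 106 (0.9%). Of the genes called, 2006 had the same sign within both letters and both days of collection. These parts belong to the libraries that made the calls, so their shared sign follows largely from the selection and is no replication. Interaction tests of edgeR found no gene (0%) whose difference depended on the letter and none (0%) on the day of collection. At an unadjusted p under 0.05 these tests gave 798 genes (6.77%) for the letter and 428 (3.63%) for the day of collection. Where no gene differs, a share of about 0.05 passes that threshold by chance. DESeq2 called 4 and 3, and limma-voom called 0 in both. Of the genes higher by day, 54.1% had their highest mean at 8 h and 23.5% at 4 h, and of the genes higher at night, 53.4% peaked at 16 h and 32.6% at 20 h, so that the 2 hours next to dusk led their sides.

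**Figure D1:**
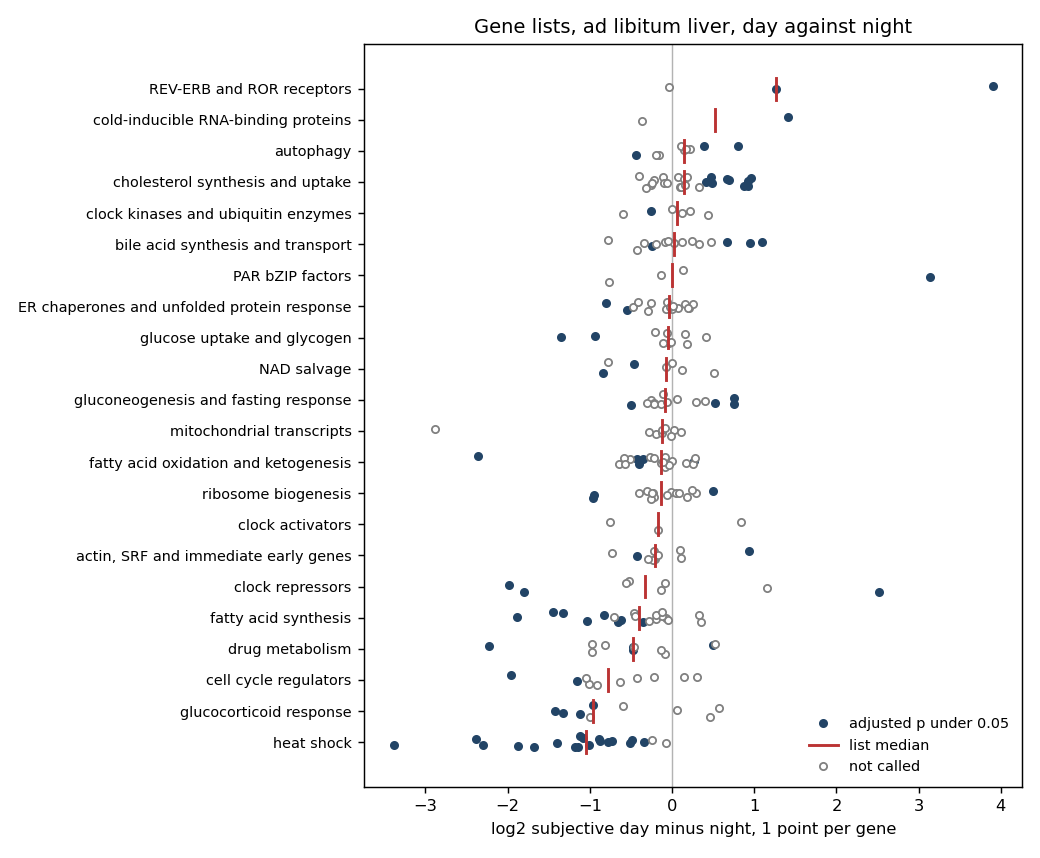
Log2 difference, day minus night, of each tested member of the 22 gene lists, 1 point per gene; filled points passed an adjusted p of 0.05, open points did not, and the bar is the list's median. The heat shock list lies almost wholly to the left, with a median of -1.05 and 18 of 20 members called higher at night.

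The core clock was only partly visible in the day-night contrast. Of 18 genes in the lists of clock activators, clock repressors, REV-ERB and ROR receptors and PAR bZIP factors, 4 were called higher by day (Nr1d1, Nr1d2, Dbp and Bhlhe41) and 2 at night (Per2 and Cry1), beside 8.25% and 8.79% of all genes. The other 12 were not called, among them all 3 activators. Tested between dawn and dusk, in the 8 libraries that the day-night contrast left out, 14 of the 18 were called, 5 of them in both contrasts. In that test 143 of 11668 genes (1.23%) were higher at dawn and 105 (0.9%) at dusk. The dawn and dusk counts moved with single libraries, from 23 to 266 and from 32 to 265 when 1 was left out. Without 1 dawn library (0 h, letter A) and 1 dusk library (12 h, letter B), chosen after seeing the data for their wide residual spread, they were 884 and 1020, and 16 of the 18 clock genes were called.

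**Figure D2:**
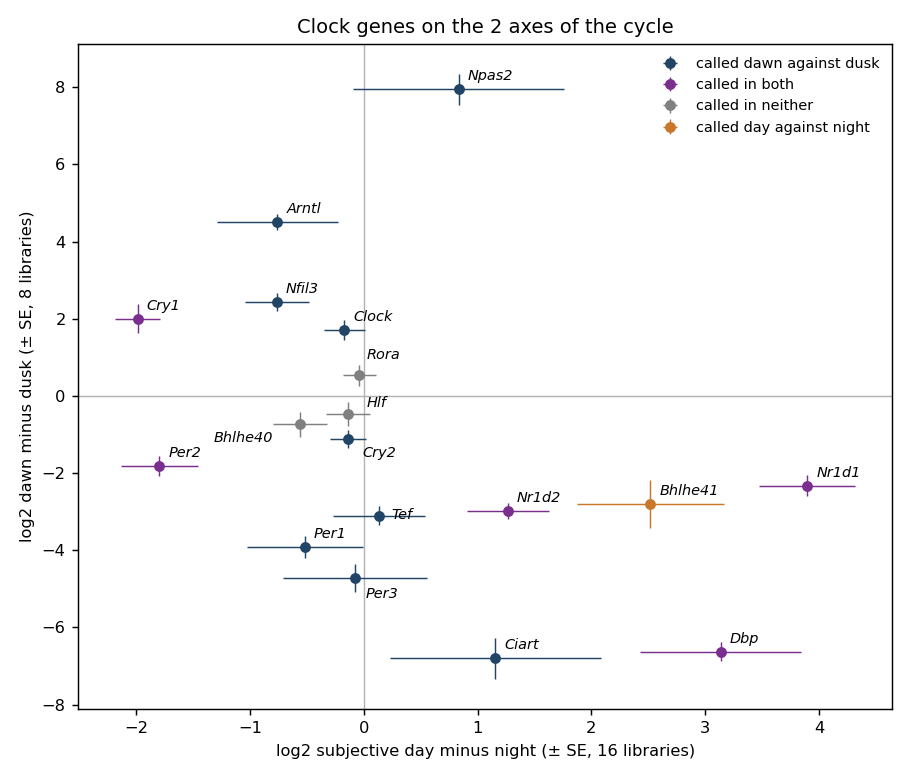
The 18 clock genes by their log2 difference between day and night (x axis) and between dawn and dusk (y axis), each with its SE. Arntl, Per3 and Ciart lie along the dawn-dusk axis, and Dbp and Nr1d1 are far out on both.

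Nr1d1, a protein-coding gene at chr11:98767932-98775333 on the minus strand in GENCODE's mouse annotation, encodes REV-ERBα, the repressor of Arntl, and showed the largest day-night difference of the genes named here. Its level ran from 62.2 to 166 CPM by day (median 125) and from 2.19 to 22.8 CPM at night (median 5.37). The sides did not overlap, and the difference was 3.90 ± 0.42 (edgeR adjusted p = 1.02e-05). Its mean was 102 CPM at 4 h and 139 CPM at 8 h, and 3.05 CPM at 20 h. Its paralogue Nr1d2, which encodes REV-ERBβ, ran from 53.2 to 204 CPM by day (median 91.7) and from 10.6 to 84.7 CPM at night (median 39.0). Here the sides overlapped, and the difference of 1.26 ± 0.36 (edgeR adjusted p = 0.0227) lost its call when the 8 h library of letter A was left out (edgeR adjusted p = 0.0525). Per length, as mean deposited RPKM ± SD (n = 8), Nr1d1 stood at 35.6 ± 12.4 and Nr1d2 at 18.1 ± 8.19 by day, and at 2.25 ± 2.03 and 7.32 ± 4.01 at night.

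Rora, the gene of the receptor RORα, an activator at the elements that REV-ERB proteins repress, stood at -0.04 ± 0.15 between day and night and at 0.53 ± 0.28 between dawn and dusk, neither of them called.

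Dbp, a PAR bZIP activator at D-boxes and a direct target of BMAL1, changed steeply within the day itself. At 4 and 28 h its 4 libraries held 4.36, 22.7, 8.76 and 10.1 CPM (A and B in turn), and at 8 and 32 h 77.6, 159, 96.5 and 162 CPM. The 8 night libraries ranged from 2.11 to 17.0 CPM and so overlapped with the earlier day hour only. The day-night difference was 3.13 ± 0.71 (edgeR adjusted p = 0.00593), and dawn lay far below dusk, at -6.63 ± 0.25 (edgeR adjusted p = 2.88e-06). Tef, another PAR bZIP activator, was at 0.13 ± 0.40 between day and night and was called only between dawn and dusk (-3.10 ± 0.24, edgeR adjusted p = 0.000349). Nfil3, a repressor that competes for D-boxes, was at -0.76 ± 0.28 (edgeR adjusted p = 0.0675) and was higher at dawn (2.44 ± 0.23, edgeR adjusted p = 0.000964). Hlf, the remaining gene of the PAR bZIP list, was called in neither test.

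Among the repressors, Cry1 and Per2 were higher at night. Cry1, whose protein blocks the BMAL1 complex, ran from 5.89 to 17.1 CPM by day (median 9.32) and from 27.0 to 48.2 CPM at night (median 39.9). The sides were fully apart, with a difference of -1.99 ± 0.19 (edgeR adjusted p = 3.99e-06). Cry1 was also higher at dawn than at dusk, by 2.00 ± 0.37 (edgeR adjusted p = 0.0256). Per2 ran from 13.7 to 75.6 CPM by day (median 20.5) and from 56.2 to 152 CPM at night (median 96.3). Only the 8 h and 32 h libraries of letter B, at 53.5 and 75.6 CPM, came near or into the night range, and the difference was -1.80 ± 0.34 (edgeR adjusted p = 0.00165). Per2 was lower at dawn than at dusk (-1.82 ± 0.26, edgeR adjusted p = 0.00828). Bhlhe41, which encodes the E-box repressor DEC2 and whose E-box is shown above, went the other way: its level ran from 1.14 to 28.0 CPM by day (median 8.87) and from 0.459 to 4.99 CPM at night (median 1.12), with 2.52 ± 0.65 (edgeR adjusted p = 0.0126), a call that limma-voom did not make. Its high values were those of 8 and 32 h, while the 4 and 28 h libraries, at 1.28, 1.59, 3.77 and 1.14 CPM, lay within the night range.

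Other clock genes were called only between dawn and dusk, and Arntl crossed from high to low within the day. Arntl, whose window above holds a REV-ERB and ROR element, ran from 1.38 to 31.2 CPM by day (median 10.9) and from 13.3 to 37.1 CPM at night (median 23.2). The sides overlapped widely, and the difference was -0.76 ± 0.53 (edgeR adjusted p = 0.346), while dawn exceeded dusk by 4.52 ± 0.20 (edgeR adjusted p = 9.05e-06). Its means at 4 and 20 h, 25.7 and 31.6 CPM, and at 8 and 16 h, 2.85 and 15.5 CPM, show a high and a low hour on each side. Npas2 and Clock, partners of BMAL1, were likewise higher at dawn, by 7.94 ± 0.39 (edgeR adjusted p = 1.47e-05) and 1.71 ± 0.25 (edgeR adjusted p = 0.00966), with day-night differences of 0.83 ± 0.93 and -0.17 ± 0.18 that were not called. The repressor genes Per1, Per3, Cry2 and Ciart were called higher at dusk, with dawn-dusk differences of -3.91 ± 0.28, -4.72 ± 0.35, -1.12 ± 0.23 and -6.79 ± 0.53. Their day-night differences, from -0.52 for Per1 to 1.15 for Ciart, with SEs up to 0.93, were not called. With a mean for each of the 4 clock hours in the day-night model, which moves the change within a side out of the residual, 5 repressors in place of 2 and 1 activator in place of 0 were called higher at night. Bhlhe40, which encodes the repressor DEC1, was called in neither test.

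**Figure D3:**
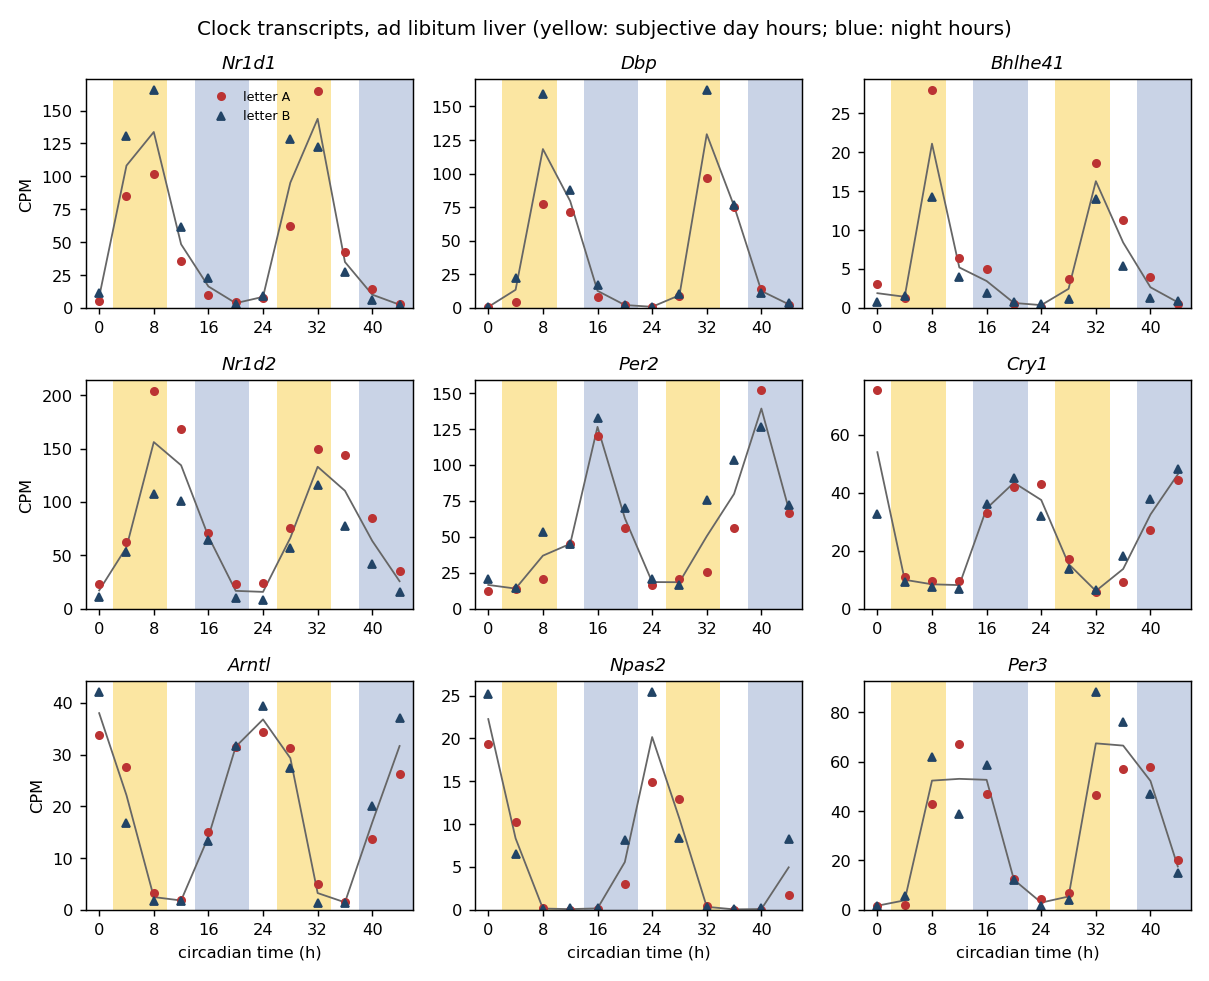
CPM of 9 clock transcripts in all 24 ad libitum liver libraries against circadian time; circles are letter A, triangles letter B, the line joins their means, and shading marks the day and night hours compared. Nr1d1 is higher in every day library than in any night library, Cry1 the reverse, while Arntl, Npas2 and Per3 change several-fold within a shaded block.

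Of 6 clock kinase and ubiquitin enzyme genes, 1 was called, a share near the 17% of all genes called on either side. Csnk1d, a kinase of PER proteins, was higher at night (-0.25 ± 0.08, edgeR adjusted p = 0.0348). The call of Csnk1d was lost in 7 of the 16 fits that left out 1 library (edgeR adjusted p up to 0.0645, without the 20 h library of letter A).

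Heat shock genes had the highest share of called members of the 22 lists. The lists were chosen with earlier results of these data known, so this rank may follow in part from that choice. Many heat shock genes are known targets of HSF1, a factor switched on by heat and by unfolded protein. Of 21 genes of cytosolic and mitochondrial chaperones and their helpers, 20 passed the filter on low counts (Hspa1a did not). Of these, 18 were called higher at night and none by day, with a list median of -1.05 beside -0.01 for all genes, and in 6 of them the sides did not overlap. The share of all genes called higher at night was 8.79%. Hspb8, a small heat shock protein gene, and Hspa4, a nucleotide exchange factor gene, were not called, at -0.24 ± 0.15 and -0.08 ± 0.09. Within letter A 14 were called at night and within letter B 15, within the first day 14 and within the second day 9. The other members called, not described below, are co-chaperone and helper genes: Dnajb1 (-1.09 ± 0.16), Bag3 (-1.01 ± 0.15), Chordc1 (-1.15 ± 0.13), Hspa4l (-1.41 ± 0.16), Dnaja1 (-0.88 ± 0.18), Dnajb4 (-0.51 ± 0.11) and Cacybp (-0.73 ± 0.12).

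The inducible members changed most. Hspa1b, which encodes a stress-induced HSP70, ran from 1.19 to 3.24 CPM by day (median 1.63) and from 2.19 to 53.3 CPM at night (median 17.0), with a difference of -3.38 ± 0.50 (edgeR adjusted p = 0.000223). All 4 libraries of 16 and 40 h lay above all 4 of 20 and 44 h. The former held 36.6, 17.1, 53.3 and 29.7 CPM, and the 44 h library of letter B, at 2.19 CPM, lay within the day range. Hspa1b and Hspa1a are nearly identical copies, so reads may have been split between them and the level is uncertain. Hsph1, which encodes the HSP70 partner HSP105 and whose window holds 3 heat shock pairs, ran from 18.1 to 50.4 CPM by day (median 22.4) and from 58.5 to 232 CPM at night (median 125). The sides were apart, with -2.39 ± 0.22 (edgeR adjusted p = 2.98e-06). Hspb1, which encodes the small chaperone HSP25 and has 2 such pairs, ran from 1.12 to 5.94 CPM by day (median 3.28) and from 7.95 to 30.1 CPM at night (median 16.4), again without overlap, with -2.30 ± 0.22 (edgeR adjusted p = 3.37e-06).

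The abundant chaperones followed with smaller folds. Hsp90ab1, the constitutive HSP90 gene, ran from 507 to 751 CPM by day (median 551) and from 929.7 to 1184 CPM at night (median 1068), fully apart, at -0.89 ± 0.09 (edgeR adjusted p = 4.08e-06). Its stress-induced sister Hsp90aa1 was at -1.87 ± 0.20 and the constitutive HSP70 gene Hspa8 at -1.68 ± 0.25. Hspa8 had its mean high at 16 h, at 1447 CPM, against 597 CPM at 20 h and 324 CPM at 8 h. The HSP90 helpers Fkbp4 (-1.12 ± 0.10), Ahsa1 (-0.78 ± 0.08) and Stip1 (-1.18 ± 0.12) had sides that did not overlap. The mitochondrial chaperonin pair, Hspd1 and Hspe1, which share a divergent promoter, was at -0.34 ± 0.09 and -0.48 ± 0.10. Per length, Hsp90ab1 was the more abundant HSP90 on both sides, at 170.5 ± 23.7 RPKM by day and 313 ± 43.0 at night, beside 18.6 ± 10.6 and 64.5 ± 19.0 for Hsp90aa1 (mean ± SD, n = 8). Of the 17 tested list members with a promoter window, 11 (64.7%) held a heat shock pair, beside 17.0% of all genes with a window. The list was drawn up from known heat shock genes, so this share describes how it was chosen.

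**Figure D4:**
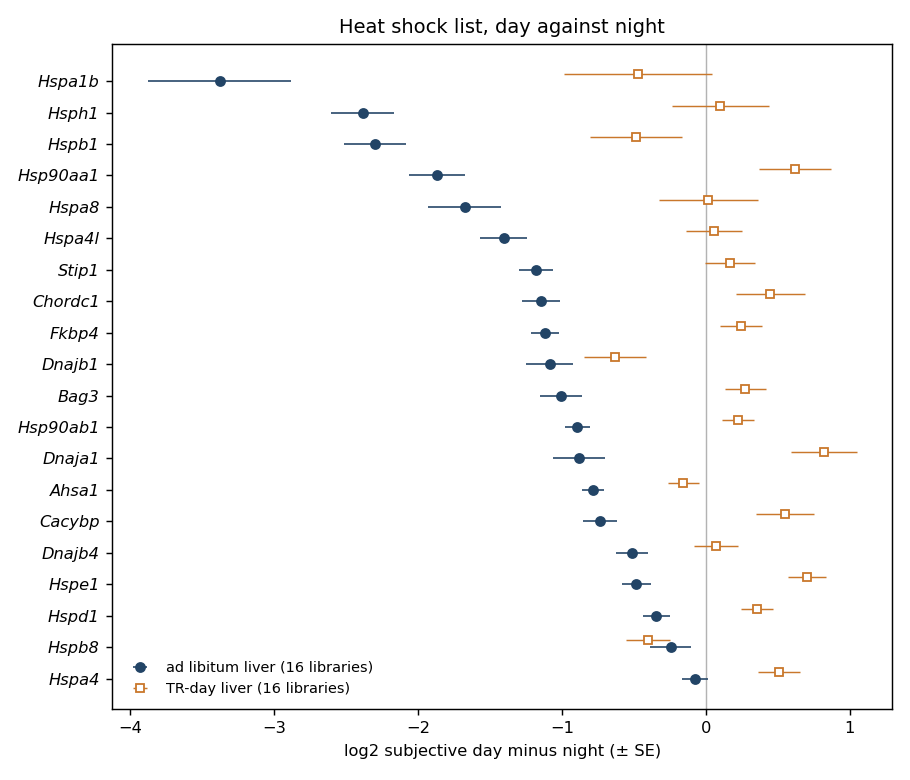
Log2 difference, day minus night, with its SE, for the 20 heat shock genes tested in ad libitum liver (filled circles) and in TR-day liver (open squares). Every circle lies left of 0, from -3.38 for Hspa1b to -0.08 for Hspa4, and most squares lie near or right of 0.

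The cold-inducible RNA-binding protein gene Cirbp, which is known to fall when temperature rises, was higher by day. It ran from 9.32 to 20.3 CPM by day (median 15.7) and from 3.05 to 10.1 CPM at night (median 4.87), with a small overlap and a difference of 1.41 ± 0.15 (edgeR adjusted p = 7.43e-06). Rbm3, the other cold-inducible gene listed, was not called (-0.36 ± 0.17). Of the endoplasmic reticulum chaperones and unfolded protein response genes, 2 of 16 were called, both higher at night (Dnajb9 at -0.55 ± 0.15 and Creld2 at -0.81 ± 0.25, which lost its call in 7 of the 16 fits without 1 library, edgeR adjusted p up to 0.0625, without the 8 h library of letter A), with a list median of -0.04, and Hsp90b1, the HSP90 of that compartment, was at 0.26 ± 0.11 without a call. Among all genes 8.79% were called at night and 17% on either side.

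Called genes of fatty acid synthesis were higher at night, and called genes of cholesterol synthesis were higher by day. Of 20 fatty acid synthesis genes, 8 were called higher at night and none by day (median -0.40), and of 24 genes of cholesterol synthesis and uptake, 9 were called higher by day and none at night (median 0.15). The shares of all genes called were 8.79% at night and 8.25% by day. Thrsp, which encodes the lipogenic protein Spot 14, ran from 89.5 to 541 CPM by day (median 248) and from 269 to 1378 CPM at night (median 987). The sides overlapped in a few libraries, the lowest at night being 44 h of letter A, and the difference was -1.89 ± 0.32 (edgeR adjusted p = 0.000667). Elovl6, a fatty acid elongase gene, was at -1.33 ± 0.27, and its day values ranged from 179 to 806 CPM with the 32 h library of letter A highest. Fasn, the fatty acid synthase gene, ran from 422 to 2753 CPM by day (median 1813) and from 1673 to 5785 CPM at night (median 3654), a difference of -1.04 ± 0.24 (edgeR adjusted p = 0.00752). Pklr (liver pyruvate kinase, -0.65 ± 0.15), Mid1ip1 (a partner of acetyl-CoA carboxylase, -0.82 ± 0.18), Pnpla3 (-1.44 ± 0.45) and the regulators Srebf1 (-0.62 ± 0.21) and Mlxipl (-0.35 ± 0.12) completed the group. Pnpla3 (edgeR adjusted p = 0.0350), Srebf1 and Mlxipl (edgeR adjusted p = 0.0477 each) lay close to the threshold. Their calls were not followed in the fits without 1 library. Without the letter as a block 3 of the 20 were called, and 5 in a fit of all 24 libraries and after correction for GC content. Within letter A 2 were called and within letter B 7, within the first day 9 and within the second day none.

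The cholesterol genes called by day were Hmgcs1, Mvk, Idi1, Fdft1, Cyp51, Msmo1, Nsdhl, Hsd17b7 and Sc5d, which encode enzymes from the start to the end of the pathway. Idi1, isopentenyl diphosphate isomerase, ran from 24.6 to 50.1 CPM by day (median 30.3) and from 11.5 to 24.1 CPM at night (median 16.4), without overlap, at 0.93 ± 0.13 (edgeR adjusted p = 0.000176). Msmo1, a sterol demethylase, ran from 133 to 283 CPM by day (median 178) and from 73.9 to 152 CPM at night (median 92.0), at 0.93 ± 0.12 (edgeR adjusted p = 6.07e-05), and Hmgcs1, HMG-CoA synthase, was at 0.87 ± 0.28 (edgeR adjusted p = 0.0373). The differences of the 9 genes ran from 0.41 for Sc5d to 0.96 for Mvk. Without the block 5 were called, within letters A and B 4 and 5, and within the first and second day 4 and 2. Among the 15 bile acid and sterol transport genes, 3 were called by day and 1 at night, beside 8.25% and 8.79% of all genes. Both subunits of the canalicular sterol exporter were higher by day. Abcg8 ran from 70.3 to 199 CPM by day (median 121) and from 43.0 to 69.4 CPM at night (median 58.3), fully apart, at 1.10 ± 0.14 (edgeR adjusted p = 5.94e-05), and Abcg5 was at 0.67 ± 0.18 (edgeR adjusted p = 0.0151). Hsd3b7, an enzyme of bile acid synthesis, was also higher by day (0.95 ± 0.16), and Baat, which conjugates bile acids, higher at night (-0.24 ± 0.08), a call lost in 10 of the 16 fits without 1 library (edgeR adjusted p up to 0.0698, without the 8 h library of letter B).

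**Figure D5:**
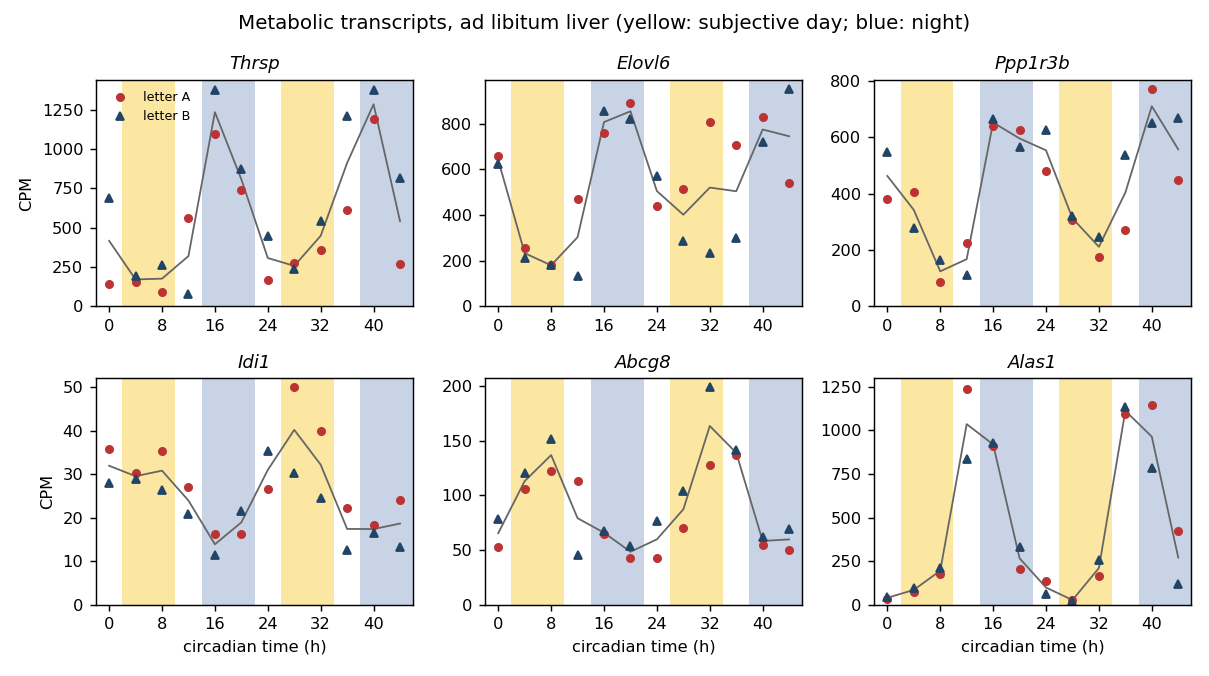
CPM of 6 metabolic transcripts in all 24 ad libitum liver libraries against circadian time; circles are letter A, triangles letter B, lines join the means, and shading marks the hours compared. Ppp1r3b is higher in every night library than in any day library, Idi1 and Abcg8 are higher in every day library, and Alas1 is high at 12 and 16 h.

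Genes of glucose uptake and glycogen had 2 of 10 tested members called, both higher at night, where 8.79% of all genes were called at night and 17% on either side. Ppp1r3b, which targets a phosphatase to glycogen, ran from 84.1 to 405 CPM by day (median 263) and from 447 to 771 CPM at night (median 645), fully apart, at -1.35 ± 0.23 (edgeR adjusted p = 0.000776). Pfkfb1, a regulator of glycolysis, was at -0.94 ± 0.19. Among 14 genes of gluconeogenesis and fasting, Pck1, Irs2 and Sds were higher by day and Tat at night. All 4 lay close to the threshold. Irs2, an insulin receptor substrate gene, was at 0.53 ± 0.17 and lost its call in 11 of the 16 fits without 1 library (edgeR adjusted p up to 0.0827, without the 32 h library of letter A), Sds, serine dehydratase, was at 0.76 ± 0.26 with 11 such losses (edgeR adjusted p up to 0.121, without the 32 h library of letter A), and Tat, tyrosine aminotransferase, was at -0.50 ± 0.15 with 8 (edgeR adjusted p up to 0.0645, without the 40 h library of letter B). Pck1, the gene of the gluconeogenic enzyme PEPCK, was at 0.76 ± 0.25 (edgeR adjusted p = 0.0433) and lost its call in 13 of the 16 (edgeR adjusted p up to 0.0866, without the 8 h library of letter B). Its highest mean lay outside the contrast, at 12 h, with 2475 CPM beside 1198 at 8 h and 684 at 16 h, and dusk exceeded dawn (-2.28 ± 0.23, edgeR adjusted p = 0.00148). Of 21 fatty acid oxidation and ketogenesis genes, 4 were called at night and 1, Etfdh, by day (0.26 ± 0.08), which lost its call in 2 of the 16 fits (edgeR adjusted p up to 0.0548, without the 16 h library of letter A). Slc25a20, the mitochondrial carnitine carrier gene, was at -0.42 ± 0.09 and Cpt2, its partner in the same shuttle, at -0.36 ± 0.09.

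Glucocorticoid-responsive genes were higher at night in 4 of 9 tested members and by day in none, with a median of -0.97. For this and the lists below, 8.79% of all genes were called at night and 8.25% by day. Tsc22d3, which encodes GILZ, ran from 18.8 to 38.8 CPM by day (median 30.4) and from 41.1 to 108 CPM at night (median 75.8), without overlap, at -1.42 ± 0.17 (edgeR adjusted p = 3.02e-05). Dusp1, a MAP kinase phosphatase gene, ran from 5.28 to 20.1 CPM by day (median 12.1) and from 21.5 to 35.1 CPM at night (median 24.4), also apart, at -1.12 ± 0.19 (edgeR adjusted p = 0.000716). Fkbp5 (-1.33 ± 0.30) and Lpin1 (-0.97 ± 0.29) were called as well. Lpin1, a phosphatidate phosphatase gene, lost its call in 5 of the 16 fits without 1 library (edgeR adjusted p up to 0.0746, without the 40 h library of letter B), and its mean was 641 CPM at 12 h beside 314 at 16 h. In NAD salvage, Nampt, the gene of its rate-limiting enzyme, was higher at night (-0.84 ± 0.18, edgeR adjusted p = 0.00432), as was the NAD kinase gene Nadk (-0.47 ± 0.08), with 2 of 7 called. Among drug metabolism genes, 3 of 11 were higher at night and 1, the canalicular exporter gene Abcc2 (0.50 ± 0.14), by day. Gsta3, a glutathione transferase gene of a family of close copies (-0.47 ± 0.07), and Nr1i2, the gene of the drug-sensing receptor PXR (-0.48 ± 0.10), were 2 of those higher at night. Alas1, the rate-limiting gene of haem synthesis, ran from 24.3 to 255 CPM by day (median 130.2) and from 121 to 1146 CPM at night (median 601), at -2.23 ± 0.52 (edgeR adjusted p = 0.00673). Its mean was 1073 CPM at 12 h and 941 at 16 h, then 269 at 20 h, so that the late night libraries overlapped with those of 8 h.

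Of 9 autophagy genes, 2 were called higher by day and 1 at night, beside 8.25% and 8.79% of all genes. Gabarapl1, which encodes an ATG8 protein of the autophagosome membrane, ran from 184 to 266 CPM by day (median 211) and from 99.2 to 145 CPM at night (median 122), fully apart, at 0.80 ± 0.09 (edgeR adjusted p = 2.56e-05). In ribosome biogenesis, Nolc1 (-0.95 ± 0.16) and Rrp12 (-0.97 ± 0.19), both of the nucleolus, were higher at night and the ribosomal RNA transcription factor Ubtf higher by day (0.49 ± 0.10), with 13 of 16 not called. In the ribosome, actin and cell cycle lists the share called was near the 17% of all genes called on either side. Of 10 actin, SRF and immediate early genes, Junb was higher by day (0.93 ± 0.19) and Tuba1c at night (-0.43 ± 0.14), a call lost in 9 of the 16 fits without 1 library (edgeR adjusted p up to 0.0784, without the 16 h library of letter B). Of 10 cell cycle genes, Cdkn1a, the gene of the inhibitor p21, was higher at night (-1.96 ± 0.55, edgeR adjusted p = 0.0207), as was Cdk1 at low level (-1.15 ± 0.38, with 5.11 CPM in the 44 h library of letter A, far above the rest of the night). Without that library the difference was -0.67 (edgeR adjusted p = 0.055), and the call was lost in 12 of the 16 fits without 1 library (edgeR adjusted p up to 0.0911, without the 32 h library of letter A). Cdkn1a lost its call in 1 of them (edgeR adjusted p up to 0.0563, without the 20 h library of letter B). None of the 9 tested mitochondrially encoded transcripts was called. Their counts were uneven between libraries, with mt-Atp6 between 0 and 191 CPM by day and between 0 and 1512 CPM at night, while mt-Nd6 ranged from 167 to 529 and from 153 to 715 CPM.

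Outside these lists, the named genes with the largest differences by day were Clec2h (a C-type lectin gene, 2.69 ± 0.52), Gpcpd1 (a glycerophosphocholine phosphodiesterase gene, 1.86 ± 0.43), Zc3h6 (a zinc finger gene, 1.77 ± 0.25) and Gnat1 (an alpha subunit of transducin, 1.69 ± 0.35), followed by Fbxo21 (1.64 ± 0.16), Syt1 (synaptotagmin, 1.57 ± 0.23), Srrm4 (a splicing factor known from neurons, 1.52 ± 0.19) and Arrdc3 (an arrestin domain protein gene, 1.43 ± 0.19). Clec2h ran from 3.51 to 27.1 CPM by day (median 4.90) and from 0.0583 to 3.61 CPM at night (median 0.752), its highest value lying in the 8 h library of letter A, far above the other day libraries. Of these genes, Zc3h6 and Srrm4 had sides that did not overlap. Zc3h6 ran from 4.01 to 12.7 CPM by day (median 6.48) and from 1.27 to 3.16 CPM at night (median 1.71). Fbxo21, which encodes an F-box protein of ubiquitin ligases, ran from 27.3 to 105 CPM by day (median 65.1) and from 12.7 to 33.6 CPM at night (median 19.5), with a small overlap and the smallest adjusted p of the group (4.92e-06, edgeR).

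At night the largest differences of named genes outside the lists were those of Lingo4 (-2.68 ± 0.34), Tsku (-2.54 ± 0.43), Cyp2a4 (-2.33 ± 0.78), Nat8f6 (-2.29 ± 0.20), Hist2h3c1 (-2.19 ± 0.34) and Nat8f5 (-2.15 ± 0.18). Tsku encodes tsukushi, a protein secreted by the liver, and ran from 3.48 to 55.1 CPM by day (median 10.8) and from 64.4 to 130.1 CPM at night (median 102), without overlap. Its 8 and 32 h libraries of letter B, at 53.9 and 55.1 CPM, lay far above the other 6 day libraries, of which the highest held 20.2. Nat8f5, of a family of acetyltransferase genes, ran from 2.92 to 10.7 CPM by day (median 5.25) and from 21.8 to 30.9 CPM at night (median 24.6), fully apart, with an adjusted p of 2.13e-06 (edgeR). Nat8f5 and Nat8f6 are close copies, so reads may be shared between them, and the same holds for the histone gene Hist2h3c1. For Cyp2a4 and another cytochrome P450 gene the call rested on few libraries. Cyp2a4, which is known to be expressed more in female than in male mouse liver and belongs to a family of close copies, ran from 0 to 5.12 CPM by day (median 1.86) and from 2.13 to 87.6 CPM at night (median 3.03), and without the 44 h library of letter A the difference moved from -2.33 to -0.76 (edgeR adjusted p = 0.301). Cyp4a14, a fatty acid hydroxylase gene under PPARα, ran from 8.70 to 49.5 CPM by day (median 13.2) and from 2.85 to 396 CPM at night (median 52.6), at -2.36 ± 0.71, a call lost in 6 of the 16 fits without 1 library (edgeR adjusted p up to 0.0691, without the 44 h library of letter A). Limma-voom called neither.

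The day-night difference was compared with that at the same hours of 2 other regimens. Both differ from ad libitum feeding in the time and in the length of food access, and a contrast with ad libitum liver holds both. The fits share the 16 ad libitum libraries, and each value below is the other regimen's own log2 day minus night, or its difference from ad libitum liver. With food at night alone, the day-night difference differed from ad libitum in 7 of 11735 genes (0.0597%). They included Msmo1 (0.02 ± 0.12 in TR-night liver, edgeR adjusted p of the difference = 0.0186), which was not called in TR-night liver. In TR-night liver itself 16.7% of genes were called higher by day and 16.5% at night. Of the 24 cholesterol genes, 11 were called higher at night there, among them Mvd (-1.73 ± 0.30), and 1 by day, Nsdhl (0.32 ± 0.12). The list median was -0.33. By comparison, ad libitum liver had 9 called by day and none at night, and of the 24 Msmo1 alone passed the test of the difference between regimens. Of the 20 fatty acid synthesis genes, 14 were called higher at night and none by day (median -0.81). Of the 20 heat shock genes, 19 were called higher at night and none by day, and none differed between the regimens at an adjusted p under 0.05.

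With food by day alone the day-night difference differed from ad libitum in 1739 of 11759 genes (14.8%). Of the 18 clock genes, 5 were among them. Nr1d1 stood at -1.52 ± 0.51 in TR-day liver (difference from ad libitum -5.43 ± 0.73, edgeR adjusted p = 4.75e-06), called on the opposite side from ad libitum liver (edgeR adjusted p = 0.0328). Per2 (1.41 ± 0.32), Cry1 (0.80 ± 0.36), Bhlhe41 (-0.44 ± 0.71) and Bhlhe40 (1.06 ± 0.22) also differed. Arntl did not pass (difference from ad libitum 0.12 ± 0.76, edgeR adjusted p = 0.947). Among 20 heat shock genes 16 differed, all towards the day, and the list median in TR-day liver was 0.20. In that regimen 4 (Hspa4, Hspd1, Dnaja1 and Hspe1) were called higher by day and 1 (Dnajb1) at night, beside 9.68% and 11.3% of all genes. Hsph1 was at 0.10 ± 0.34 and Hsp90aa1 at 0.62 ± 0.25 there. Fatty acid synthesis differed in 7 of 20 members, with Thrsp at 1.77 ± 0.39 and Elovl6 at 1.46 ± 0.36, while cholesterol genes differed in 2 of 24. Nat8f6 (2.85 ± 0.37) and Nat8f5 (2.58 ± 0.32) were called by day there, beside -2.29 and -2.15 in ad libitum liver, as were Gda, guanine deaminase (1.53 ± 0.16 beside -1.35), and Rcan1, a calcineurin inhibitor gene (1.25 ± 0.19 beside -1.57), with edgeR adjusted p of the difference between 2.44e-10 and 7.37e-09.
The TR-day library labelled 44 h, letter A, stood apart from the others of its clock hour. It held 0.616 CPM of Dbp (of the library total), where the 20 h libraries and the other 44 h library held 21.6, 29.1 and 46.3, and 33.6 CPM of Arntl, where they held 7.27, 2.00 and 8.45. Without it 1774 genes differed, among them 16 of the 20 heat shock genes and 7 of the 18 clock genes.

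In ad libitum BAT, with 4 libraries a side and 1 letter, the day-night difference differed from that of liver in 810 of 12801 genes (6.33%). The count was 528, 531 and 516 without the 4 h, the 8 h or the 16 h library of BAT. Nr1d1 was higher by day in BAT as well, at 1.82 ± 0.50, by less than in liver (difference -2.09 ± 0.61, edgeR adjusted p = 0.0408). None of 21 heat shock genes differed between the tissues at an adjusted p under 0.05, and 14 were called higher at night in BAT, with a median of -0.81, while 6.19% of all genes were called higher by day and 6.3% at night there. Hsph1 was at -2.53 ± 0.42 there. Gabarapl1 (-0.57 ± 0.13 in BAT, difference -1.39 ± 0.16, edgeR adjusted p = 3.07e-05) and Casp6, a caspase gene (-0.44 ± 0.15 in BAT, 1.19 ± 0.09 in liver, edgeR adjusted p of the difference = 1.75e-05), were higher by day in liver and had the opposite sign in BAT, called for Gabarapl1 (edgeR adjusted p = 0.00632) and not for Casp6 (edgeR adjusted p = 0.0621). Cirbp was at 0.38 ± 0.24 in BAT, not called, and below liver (difference -1.04 ± 0.28, edgeR adjusted p = 0.0279).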

How the data were processed

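Polyadenylated RNA of mouse liver and BAT was sequenced, and gene counts were deposited per library. The tools behind them, per the submitters' processing notes, were STAR, featureCounts, cutadapt and FastQC. Their versions, the genome build, and whether counting used strand are not given in the sources used here, so overlapping and antisense genes may share reads. The deposited counts were whole numbers and were tested as such. The RPKM values and the gene length in bases that go with them were deposited by the authors, and RPKM served only to compare levels between genes.

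Genes were kept by edgeR's filterByExpr, scaled with TMM factors and tested with edgeR 4.0.16 (glmQLFit, glmQLFTest, R 4.3.3), with the letter as a block and Benjamini-Hochberg adjustment over all genes tested. Where a SE is given it is the absolute log2 difference over the square root of F. Dawn and dusk were compared in the same way, and letters, days of collection, TR-night liver, TR-day liver and BAT by interaction terms. What the letters mark is not stated. In the 28 pairs of times, the difference between letters A and B correlated across genes with r from 0.360 to 0.717 (median 0.524). Part of the offset between letters was thus shared by the times. Library totals and mitochondrial shares were compared by an exact permutation test of 12870 splits (scipy 1.17.1). Alternatives used DESeq2 1.42.0, limma 3.58.1, other scaling, filters and covariates, and left out single libraries. Promoter windows come from the RefSeq table of GRCm38.p6 and gene positions from the GENCODE annotation of the same assembly. The procedure was tested on simulated counts with a letter effect and a shift between the sides in some genes. The simulated means did not change between clock hours within a side, so that case was not covered.

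Named genes were the 12 with the largest called difference on each side (mean of at least 5 CPM on the higher side, the same sign within both letters and days, no predicted genes or pseudogenes), all genes of the 4 core clock lists, up to 5 members of each other list with the smallest p, and the 5 genes with the smallest p of each other test. Other heat shock, cholesterol and fatty acid synthesis genes, and clock genes that differed in TR-day liver, are named as members of their lists. A few genes are not reported here and were left out of the lists, though not of the fits. The comparison and the gene lists were chosen with earlier results of these data known. CR (calorie-restricted) regimens were not analysed here.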

Additional observations from a re-analysis of the deposited data

Results flagged for a closer look

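Of 96 groups of 8 libraries looked at (named genes, cell cycle markers and library measures on each side), 14 had 1 library far from the other 7 by Dixon's ratio of the gap to the range. Chance flags about 1 in 20 groups where values are normally distributed within 1 condition. These groups pool clock hours and letters on the CPM scale, so their rate by chance is not known.

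The 28 h library of letter A was the highest of the day in 5 of them. It held 50.4 CPM of Hsph1, 54.3 CPM of Ahsa1 and 751 CPM of Hsp90ab1, and all 3 values were still below the lowest night library. It also held 9.98 CPM of the histone gene Hist2h3c1 and 6.21 CPM of the proliferation marker Mki67. The 44 h library of letter A was the highest of the night in another 5, with 87.6 CPM of Cyp2a4, 5.11 CPM of Cdk1, 6.52 CPM of Ccne2, 24.8 CPM of Mki67 and 10.5 CPM of Top2a. Clec2h stood at 27.1 CPM in the 8 h library of letter A by day and at 3.61 CPM in the 40 h library of letter A at night. Lingo4 stood at 2.94 CPM in the 32 h library of letter B by day. The 32 h library of letter A had 26649153 counts in total, far above the other day libraries.

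Day-night differences that were not equal between ad libitum liver and another set, by the interaction test of edgeR, numbered 7 for TR-night liver, 1739 for TR-day liver and 810 for ad libitum BAT. The values below are the other set's log2 day minus night, minus that of ad libitum liver. In TR-night liver they were 1.85 for Zbed5, -0.92 for Msmo1, -1.30 for Actg1 and -0.98 for Utp14b. In TR-day liver they were 2.87 for Gda, 2.82 for Rcan1, 4.72 for Nat8f5, 5.12 for Nat8f6, 1.61 for Bhlhe40, -2.97 for Bhlhe41, 2.77 for Cry1, -5.43 for Nr1d1 and 3.20 for Per2. In BAT they were -1.57 for Leng8, -1.65 for Casp6, -1.39 for Gabarapl1, -1.24 for Pan2, -1.72 for Hjurp, -3.15 for Bhlhe41 and -2.09 for Nr1d1. The fits share the ad libitum liver libraries, so the sets of values are not independent of each other.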

How the results depend on the processing

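Counts are given as higher by day and higher at night, beside 972 and 1035. They stayed within 1.5 times under DESeq2 size factors (991 and 1016), no filter (857 and 956), DESeq2 (1176 and 1229), limma-voom (982 and 1019), a term for the day of collection (916 and 971), 4 clock-hour means (1271 and 1368), all 24 libraries (701 and 774), a term for the mitochondrial share (1072 and 1107) and GC correction (1155 and 1129). Without the replicate block they were 438 and 446. Fits of parts of the libraries gave 199 and 207 in letter A alone, 270 and 357 in letter B alone, 142 and 158 on the first day and 37 and 66 on the second. The fits of 1 letter hold no block. Leaving out 1 library gave 779 to 973 and 852 to 1047. Dawn and dusk counts were 60 and 46 without the replicate block, 884 and 1020 without the 0 h library of letter A and the 12 h library of letter B, and 23 to 266 and 32 to 265 without 1 library. With no filter dusk gave 179 genes, and 2 genes differed between days of collection. DESeq2 size factors gave 4 genes for TR-night liver. BAT gave 516 to 824 genes without 1 library. Settings for dawn and dusk and for BAT without libraries were chosen after seeing the data.

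Of 81 named genes called, 81 were called again with DESeq2 size factors, 79 of 80 with DESeq2, 75 with limma-voom, 56 without the block and 68 to 76 when 1 library was left out, and none of them reversed. Those that limma-voom did not call were Bhlhe41, Cyp4a14, Cyp2a4, Pck1, Cdk1 and Lpin1. Nr1d2, Fasn, Mid1ip1, Cyp51, Dnajb9 and Junb were among those not called without the block. Intervals and calls cover the spread between these libraries. The causes of these shifts were not tested. Genes of a few CPM rest on few counts per library, and an uncalled gene may still differ.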
